A study of Mus musculus with 11 samples.

Results

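A set of 7 genes builds and supplies the glycinergic inhibitory synapse, and its mRNA was followed here in mPFC CRF1+ neurons of naïve and withdrawn mice. The set comprised 7 of the 53465 gene identifiers counted: the glycine receptor subunit genes Glra1, Glra2, Glra3 and Glrb, the scaffold gene Gphn, and the glycine transporter genes Slc6a5 and Slc6a9. The members were taken by symbol. Cells carrying GFP were isolated by fluorescence-activated cell sorting from the medial prefrontal cortex (mPFC) of adult male CRF1:GFP mice, a reporter line in which GFP marks cells that express the type 1 corticotropin-releasing factor receptor. All mice were at least 10 weeks old, and each library held the sorted cells of 1 mouse. Withdrawn mice (n = 5) inhaled ethanol vapor intermittently for 5 to 6 weeks, were injected with ethanol and with pyrazole, an inhibitor of alcohol dehydrogenase, and were 5 to 8 days into abstinence. Naïve mice (n = 6) received pyrazole and air, so that pyrazole was common to both groups.

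Glycine receptors are pentameric chloride channels that open on binding glycine. The alpha subunits can form channels alone or together with the beta subunit, encoded by Glrb, and the beta subunit binds gephyrin, the scaffold encoded by Gphn that also holds GABA-A receptors at inhibitory synapses. Glycine is cleared by GlyT1, encoded by Slc6a9 and found mainly on astrocytes and at some glutamatergic synapses, and by GlyT2, encoded by Slc6a5 and used as a marker of glycinergic neurons of the brainstem and spinal cord. In the forebrain, glycine receptors lie largely outside synapses, and glycine is also a co-agonist of NMDA receptors.

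The subunit genes are paralogs, so their coding sequences were compared to see whether reads of 75 nt could be assigned to the wrong one. The 60-base windows printed here hold the longest run common to the 3 alpha genes, 25 bases, and the aligned stretch of Glrb. Each window lies within 1 coding exon of GRCm38 (GENCODE M21) and is written 5′ to 3′ on the coding strand, with capitals at the 29 positions that are the same in all 4 genes.
Glra1: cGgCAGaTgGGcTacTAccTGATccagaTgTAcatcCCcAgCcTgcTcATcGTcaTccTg
Glra2: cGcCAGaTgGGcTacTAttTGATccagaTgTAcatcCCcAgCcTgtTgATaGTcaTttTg
Glra3: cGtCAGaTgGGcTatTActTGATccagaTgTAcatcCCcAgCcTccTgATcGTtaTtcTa
Glrb: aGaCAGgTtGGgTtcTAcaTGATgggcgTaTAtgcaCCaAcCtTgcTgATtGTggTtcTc

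These windows lie at chr11:55527372-55527431 on the minus strand for Glra1, chrX:165252337-165252396 on the minus strand for Glra2, chr8:56089022-56089081 on the plus strand for Glra3 and chr3:80855840-80855899 on the minus strand for Glrb. Within the windows, Glra2 and Glra3 each differed from Glra1 at 8 positions and Glrb differed from it at 26. Over the aligned coding sequence, the alpha genes were 74.1% to 76.1% identical to each other and 62.0% to 65.5% identical to Glrb. No run of 75 bases was shared between the annotated transcripts of any pair of the 4 genes, and the longest shared coding run was 26 bases. The transporter genes Slc6a5 and Slc6a9 were 63.7% identical and also shared no run of that length. Reads of full length therefore had no exact match in a second member.

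Other overlaps did touch the counts. Exons of genes on the opposite strand cover part of Slc6a9, with 1429 of its 5141 exonic bases under Ccdc24, 511 under Gm17114 and 46 under B4galt2. Smaller stretches of Gphn (147 of 3749 bases, Gm48226) and of Glra1 (141 of 2414 bases, Gm12236) are shared in the same way. Whether reads were counted by strand is not given in the sources used here, so the counts of these 3 genes are uncertain to that extent.

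The libraries of naïve mice held 9970161 to 17855514 counts on genes and those of withdrawn mice 7351567 to 22244869, and 3 counts corresponded to 0.135 to 0.408 CPM (counts scaled to TMM-normalized library sizes). Crhr1, the gene of the sorted receptor, was present in every mouse (42.2 to 135.6 CPM), as were all 8 glutamatergic markers, whose summed level was 2889 to 4400 CPM in naïve and 1891 to 4042 CPM in withdrawn mice. GABAergic markers (4 of 8 with counts in every mouse, 76.3 to 935 CPM naïve, 30.4 to 732 CPM withdrawn) and astrocyte markers (1 of 8, 14.5 to 190.5 CPM naïve, 13.99 to 713 CPM withdrawn) varied widely. Of 6 fibroblast markers none had counts in every mouse, and their sum was 0.0677 to 70.9 CPM in naïve and 11.4 to 1317 CPM in withdrawn mice. Averaged over these 6 markers, log2 CPM was 0.37 ± 1.93 (SD, n = 6) for naïve and 4.11 ± 2.44 (SD, n = 5) for withdrawn mice (exact permutation test, two-sided p = 0.0260, adjusted p = 0.208 over 8 marker lists). A further label reads control for withdrawn mice 3, 4 and 5, and the deposit's design text gives 5 control and 6 ethanol animals. Groups followed the title and treatment. Naïve mouse 5 stood apart by the fewest genes detected (15585, against 22551 to 31830 in the other mice) and withdrawn mouse 2 by the lowest fibroblast score of its group (0.26), and values that moved most without either are also given without it.

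For none of the 7 genes did a difference between withdrawn and naïve mice pass the test, and the spread between animals within a group was wide for the less abundant ones. Glra1 was too low for the test, and the other 6 passed the filter on low counts. Of these, 0 reached an adjusted p of at most 0.05 with a log2 fold change beyond 0.6 in edgeR's quasi-likelihood test, where 1 of 17093 genes did so (0.00585%), and 0 had an unadjusted p under 0.05, against 5.00% of all tested genes higher and 2.22% lower. DESeq2's Wald test, at the same thresholds, called 0 of the 7 members and 0.864% of 41907 genes. The groups overlapped for all 7 members, as they did for all but 0.948% of the tested genes. In sorted bulk samples a lower level can come from fewer cells of a type or from less RNA per cell, and these cannot be told apart.

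**Figure D1:**
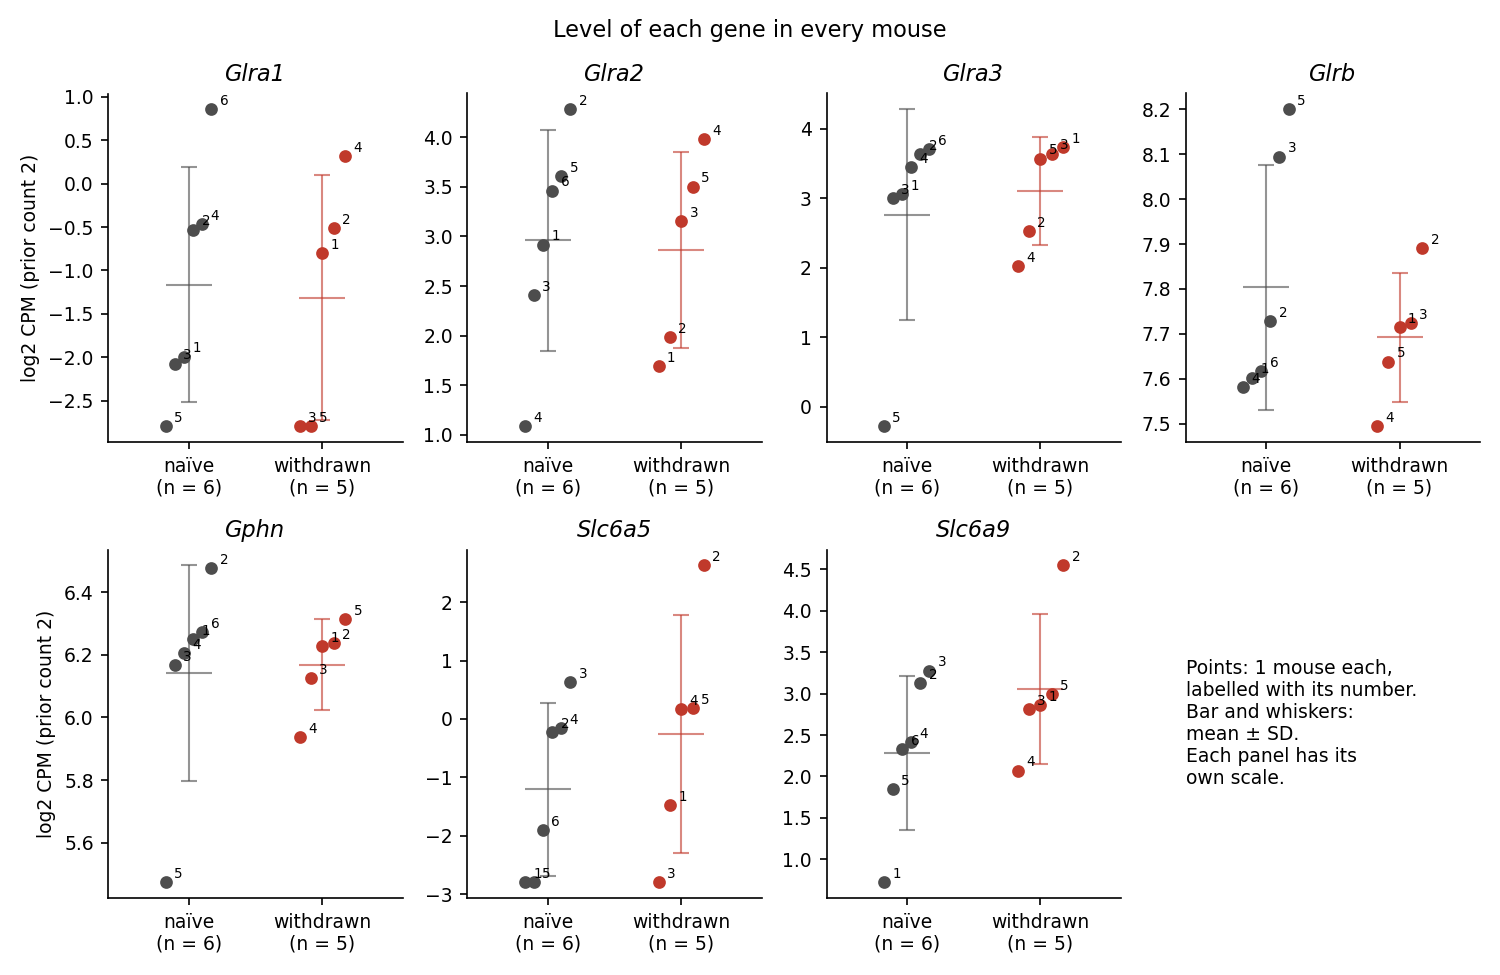
Level of each of the 7 genes in every mouse, as log2 CPM with a prior count of 2, for naïve (dark) and withdrawn (red) mice; bars and whiskers give the mean and SD, and each panel has its own axis. The groups overlap in all 7 panels, naïve mouse 5 lies lowest for Glra3 and Gphn, and withdrawn mouse 2 lies highest for Slc6a5 and Slc6a9.

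Glrb (ENSMUSG00000028020, chr3:80843599-80913660, minus strand), which encodes the beta subunit, was by far the most abundant of the receptor genes. It ranged from 191 to 294 CPM in naïve mice (median 204) and was 210.0, 237, 211, 180.1 and 199 CPM in withdrawn mice 1 to 5. Naïve mice 3 and 5 lay above every withdrawn mouse, and the other 4 naïve mice lay among them. Naïve mice averaged 227 ± 45.0 CPM (SD, n = 6), and the withdrawn mean was 208 ± 20.7 CPM (SD, n = 5). The log2 fold change was -0.13 (SE 0.15, 95% interval -0.46 to 0.20, edgeR adjusted p = 0.923), an interval of 0.727- to 1.15-fold. This was the narrowest interval of the 6 members tested. Without naïve mouse 5 the log2 fold change was -0.03 (edgeR adjusted p = 0.973).

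Glra2 (ENSMUSG00000018589, chrX:165129017-165327393, minus strand) encodes the alpha 2 subunit, known as the main alpha subunit of the developing forebrain. Its level ran from 1.98 to 19.3 CPM in naïve mice (median 9.14) and was 3.10, 3.81, 8.78, 15.6 and 11.2 CPM in withdrawn mice 1 to 5. High and low mice occurred in both groups, with naïve mouse 4 lowest and naïve mouse 2 highest of all 11. The log2 fold change of -0.16 (SE 0.61) had a 95% interval from -1.46 to 1.14 (edgeR adjusted p = 0.980), or 0.364- to 2.21-fold. Changes across that interval, in either direction, remain compatible with these values. Without the 3 mice whose further label reads control, which leaves 2 withdrawn mice, the log2 fold change was -1.51 (edgeR adjusted p = 0.805).

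Glra3 (ENSMUSG00000038257, chr8:55940460-56130070, plus strand), the alpha 3 subunit gene, ran from 0.677 to 12.9 CPM in naïve mice (median 9.47) and was 13.2, 5.60, 12.3, 3.93 and 11.7 CPM in withdrawn mice 1 to 5. The lowest value, 10 counts in naïve mouse 5, lay far below the next naïve mouse at 7.87 CPM. Withdrawn mice 2 and 4 were lower than the other 5 naïve mice, and withdrawn mouse 1 was the highest of all. The log2 fold change was 0.09 (SE 0.61, 95% interval -1.22 to 1.41, edgeR adjusted p = 0.987) and turned to -0.14 without naïve mouse 5.

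Glra1 (ENSMUSG00000000263, chr11:55514238-55608198, minus strand), the alpha 1 subunit gene that predominates in adult spinal cord and brainstem, was near the floor. It had 0 to 27 counts in naïve mice, with a median of 0.328 CPM and a highest value of 1.67 CPM in naïve mouse 6, and it had 6, 5, 0, 9 and 0 counts in withdrawn mice 1 to 5. Counts exceeded 3 in 3 of 6 naïve and 3 of 5 withdrawn mice, and naïve mouse 5 and withdrawn mice 3 and 5 had none. A count of 0 allows a level of up to 0.191 CPM in naïve mouse 5, 0.135 CPM in withdrawn mouse 3 and 0.211 CPM in withdrawn mouse 5, with counting error alone considered. Its log2 CPM did not separate the groups (two-sided exact permutation test over 462 splits, p = 0.857).

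Levels per exon length placed Glrb above all other members. Median CPM per kb of exon over the 11 mice was 45.1 for Glrb, 19.9 for Gphn, 2.79 for Glra2, 1.34 for Slc6a9, 1.17 for Glra3, 0.179 for Glra1 and 0.0991 for Slc6a5. Glrb exceeded Gphn, and Gphn exceeded Glra2, in 11 of 11 mice, with ranges that did not meet. Below Glra2 the ranges of neighbours overlapped: Glra2 exceeded Slc6a9 in 7 of 11 mice, Slc6a9 exceeded Glra3 in 6, Glra3 exceeded Glra1 in 10 and Glra1 exceeded Slc6a5 in 6. Among 17069 genes ranked per exon length in each mouse, the median percentile was 92.8 for Glrb and 83.2 for Gphn, against 43.5 for Glra2, 30.9 for Slc6a9, 28.4 for Glra3, 6.40 for Glra1 and 2.41 for Slc6a5.

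**Figure D2:**
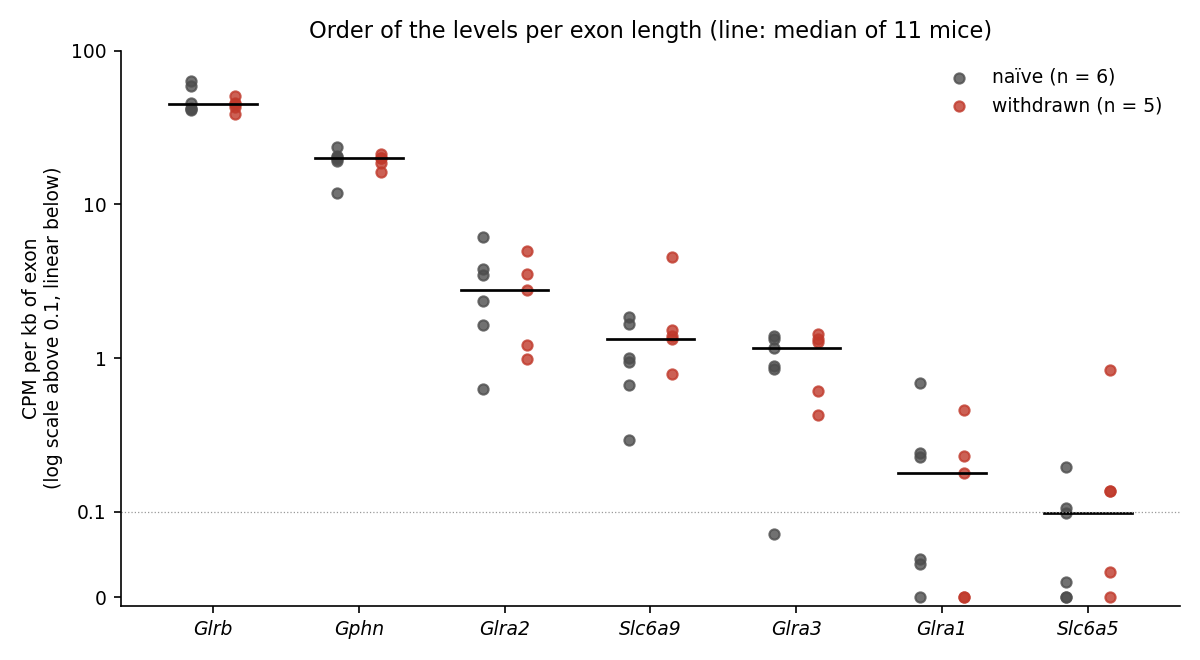
CPM per kb of exon for the 7 genes, 1 point per mouse (naïve dark, withdrawn red) and a line at the median of 11 mice; the axis is logarithmic above 0.1 and linear below. Glrb and Gphn stand clear of the other genes, with medians of 45.1 and 19.9, while the ranges of the lower neighbours overlap.

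The beta subunit gene thus made up most of the receptor subunit mRNA on a per-length scale. Of the summed level of Glra1, Glra2, Glra3 and Glrb, the share of Glrb was 92.0% ± 4.13 (SD, n = 6) for naïve and 91.8% ± 3.69 (SD, n = 5) for withdrawn mice. The log2 ratio of the summed alpha genes to Glrb was -3.64 ± 0.77 (SD, n = 6) for naïve and -3.58 ± 0.74 (SD, n = 5) for withdrawn mice, which differed by 0.06 (two-sided exact permutation test, p = 0.900, adjusted p = 0.900 over 3 ratios). Both groups covered a similar span, from -4.48 to -2.55 in naïve and from -4.57 to -2.71 in withdrawn mice. The direction of this small difference depended on the animals: it was -0.68 without the 3 mice whose further label reads control (exact p = 0.286).

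Among the alpha genes, Glra2 led in most mice on the per-length scale, but not in CPM. It exceeded Glra3 per exon length in 9 of 11 mice, the exceptions being naïve mouse 4 and withdrawn mouse 1, where its share of the summed alpha level was 30.8% and 37.9%. Its share averaged 67.9% ± 22.3 (SD, n = 6) for naïve and 64.6% ± 17.6 (SD, n = 5) for withdrawn mice, with the highest value, 98.1%, in naïve mouse 5. Glra3 held 27.1% ± 18.4 (SD, n = 6) and 30.2% ± 17.1 (SD, n = 5), and Glra1 held 5.02% ± 5.60 (SD, n = 6) and 5.21% ± 5.04 (SD, n = 5). The order of Glra2 and Glra3 depended on the scaling by exon length, 3150 and 9208 bases. Their longest coding sequences have 1359 and 1443 bases. Mean CPM over the 11 mice was 9.02 for Glra2 and 9.04 for Glra3. In CPM, Glra2 was the higher only in naïve mice 2 and 5 and withdrawn mouse 4.

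**Figure D3:**
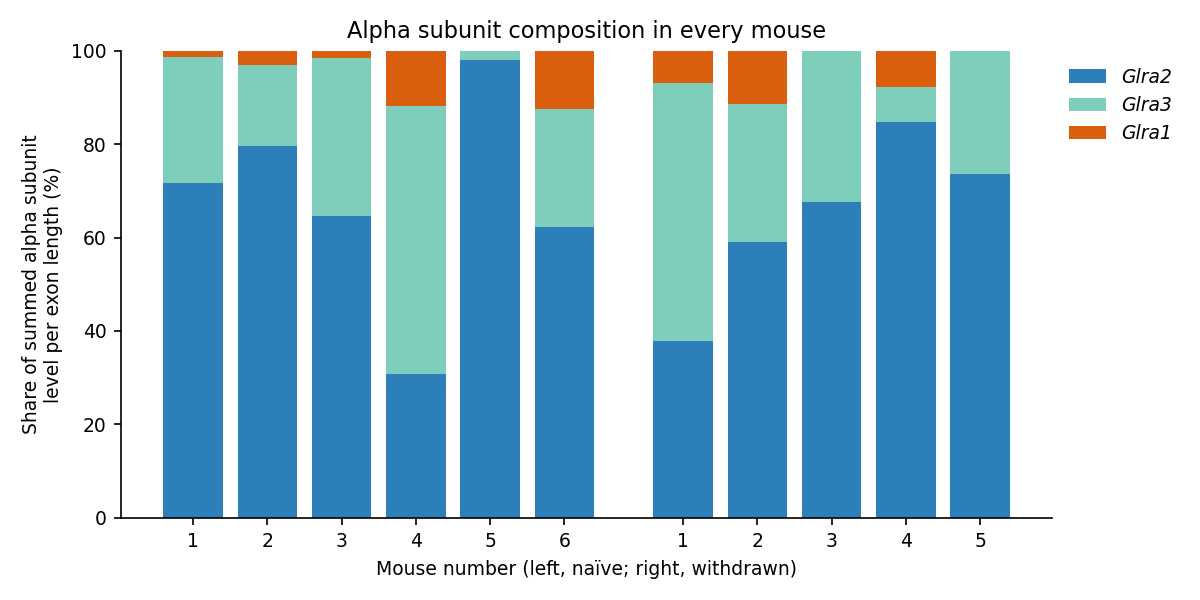
Share of Glra2, Glra3 and Glra1 in the summed alpha subunit level per exon length (percent, 1 stacked bar per mouse, naïve mice at the left and withdrawn mice at the right). Glra2 is the larger share in 9 of 11 mice, with 98.1% in naïve mouse 5 and 30.8% in naïve mouse 4.

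Gphn (ENSMUSG00000047454, chr12:78226379-78684772, plus strand) encodes gephyrin, which anchors glycine and GABA-A receptors and also catalyses the last steps of molybdenum cofactor synthesis. It ranged from 44.3 to 89.0 CPM in naïve mice (median 74.9) and was 74.8, 75.3, 69.7, 61.1 and 79.4 CPM in withdrawn mice 1 to 5. Apart from naïve mouse 5, which was lowest, all mice fell between 61.1 and 89.0 CPM. The naïve mean was 72.0 ± 14.9 CPM (SD, n = 6) and the withdrawn mean 72.1 ± 7.03 CPM (SD, n = 5), at a log2 fold change of 0.00 (SE 0.18, 95% interval -0.39 to 0.39, edgeR adjusted p = 0.999). Without naïve mouse 5 the log2 fold change was -0.10.

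The ratio of Glrb to Gphn compares the subunit that binds gephyrin with the scaffold itself. Its log2 value averaged 1.35 ± 0.57 (SD, n = 6) for naïve and 1.21 ± 0.13 (SD, n = 5) for withdrawn mice, and over all mice Glrb stood 2.44-fold above Gphn per exon length. The difference of -0.14 was within the spread (two-sided exact permutation test, p = 0.734, adjusted p = 0.900). Naïve mouse 5, high for Glrb (294 CPM) and low for Gphn (44.3 CPM), had the highest ratio, 2.41, and without it the difference was 0.07 (exact p = 0.643). In mean log2 CPM, this mouse also had the lowest glutamatergic (6.47), astrocyte (-1.39), endothelial (-2.54) and fibroblast (-2.70) marker scores of all 11. It shared the lowest scores of oligodendrocyte precursor and microglia markers (-2.80 each). Its GABAergic score (0.53) was above only that of withdrawn mouse 3, and its oligodendrocyte score (1.01) above only that of naïve mouse 1. The part of these scores in its values was not tested.

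Slc6a9 (ENSMUSG00000028542, chr4:117834506-117875198, plus strand), the GlyT1 gene, had the largest difference among members with counts in every mouse, which did not pass the test. It ran from 1.50 to 9.56 CPM in naïve mice (median 5.03) and was 7.13, 23.3, 6.87, 4.06 and 7.85 CPM in withdrawn mice 1 to 5. Withdrawn mouse 2 stood alone at the top, and the other 4 withdrawn mice lay within the naïve range. The naïve mean was 5.52 ± 3.05 CPM (SD, n = 6), the withdrawn mean was 9.84 ± 7.65 CPM (SD, n = 5), and the log2 fold change was 0.83 (SE 0.59, 95% interval -0.44 to 2.10, edgeR adjusted p = 0.850). Without withdrawn mouse 2 it was 0.23, and without the 3 mice with conflicting labels it was 1.40 (edgeR adjusted p = 0.795).

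Slc6a5 (ENSMUSG00000039728, chr7:49910146-49963856, plus strand), the GlyT2 gene, was at or near the floor in most mice. It had 0 to 15 counts in naïve mice (median 0.419 CPM, highest 1.41 CPM) and 3, 54, 0, 8 and 14 counts in withdrawn mice 1 to 5. Withdrawn mouse 2, at 6.04 CPM, held 73.4% of the summed CPM of its group, and the other 10 mice had 1.41 CPM or less. The log2 fold change of 1.69 (SE 1.37, 95% interval -1.25 to 4.63, edgeR adjusted p = 0.868) was 0.10 without that mouse, 2.55 without the 3 mice with conflicting labels (edgeR adjusted p = 0.814) and -0.72 in limma voom with sample quality weights.

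Both transporter genes were therefore highest in the same animal. In withdrawn mouse 2 the score of the 8 GABAergic markers, in mean log2 CPM, was 3.74. It was the highest of the withdrawn group but below that of naïve mice 1, 2, 3 and 6. The glutamatergic score (7.40) was also the highest of the withdrawn group. The astrocyte (-0.44), oligodendrocyte precursor (-2.80) and fibroblast (0.26) scores were the lowest of the withdrawn group. The oligodendrocyte (2.09), endothelial (1.59) and microglia (-0.89) scores lay between those of other withdrawn mice. The library of withdrawn mouse 2 had 8696939 counts on genes and 39.6% of tallied reads outside genes. The withdrawn medians were 13671076 and 26.2%, and withdrawn mouse 4 had 7351567 and 48.1%. The part of marker scores and library measures in the transporter values of withdrawn mouse 2 was not tested. The log2 ratio of Slc6a9 to Glrb was -5.54 ± 0.82 (SD, n = 6) for naïve and -4.71 ± 0.74 (SD, n = 5) for withdrawn mice, which differed by 0.83 (two-sided exact permutation test, p = 0.147, adjusted p = 0.442). Without withdrawn mouse 2 the difference was 0.52, and without the 3 mice with conflicting labels it was 1.35 (exact permutation test, p = 0.143).

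The level of each tested member was set against 4 marker scores (glutamatergic, GABAergic, astrocyte and fibroblast) over the 11 mice. Of 24 relations, 0 passed an adjusted p of 0.05 by Pearson's r or by Spearman's rho. The unadjusted permutation p of Pearson's r was under 0.05 for 4 of the 24. The strongest was that of Glrb with the astrocyte score, with r = -0.78 (permutation p = 0.00438, adjusted p = 0.105) and rho = -0.63 (permutation p = 0.0443, adjusted p = 0.376). Without the 2 mice farthest from the median score, its r was -0.58. Gphn and the glutamatergic score followed, with r = 0.73 (permutation p = 0.0106, adjusted p = 0.128), rho = 0.43 (permutation p = 0.193, adjusted p = 0.652) and r = 0.60 without the 2 farthest mice. By Pearson's r, permutation p was also under 0.05 for Gphn with the GABAergic score (r = 0.59, adjusted p = 0.272) and Glra3 with the glutamatergic score (r = 0.60, rho = -0.11, adjusted p = 0.272). For Slc6a9, r was -0.25 with the astrocyte score (permutation p = 0.473, adjusted p = 0.714). Its rho was -0.27 (permutation p = 0.420, adjusted p = 0.839), and r was -0.21 without the 2 farthest mice. Within naïve (n = 6) and withdrawn mice (n = 5), r was 0.12 and -0.96 for Slc6a9 with the astrocyte score. It was -0.76 and -0.95 for Glrb with the astrocyte score, and 0.86 and 0.62 for Gphn with the glutamatergic score.

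Genes most like each member were found as the 3 with the highest Pearson r of log2 CPM over 11 mice among 17087 tested genes, a description that carries no test. For Glrb these were Trnt1 (0.90), Opa3 (0.90) and 4930466K18Rik (0.89), and for Gphn they were St6galnac3 (0.96), Inha (0.95) and Gm9967 (0.95). Glra2 was most like Tle4 (0.87), Spon1 (0.87) and Gtf2h1 (0.84), and Glra3 was most like Rab8b (0.97), Wdtc1 (0.96) and Gm20712 (0.96). For Slc6a9 they were Usp45 (0.99), Zgpat (0.93) and Luc7l (0.93), and for Slc6a5 they included Gm43430 (0.95) and Ccdc63 (0.93). Over the 9 mice other than naïve mouse 5 and withdrawn mouse 2, r was 0.99 for Slc6a9 with Usp45, 0.88 for Glra3 with Rab8b and 0.84 for Gphn with St6galnac3.

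The genes around these members were read from 5 lists of 36 genes in all: organisers of inhibitory synapses, chloride transporters, glycine metabolism and transport, molybdenum cofactor synthesis, and the remaining receptor subunit gene Glra4. Of the 34 that passed the filter, 12 were above and 22 below 0 in log2 fold change, with a median of -0.17, against 8852 above and 8241 below among 17093 genes and a median of 0.02. In edgeR, 0 of the 34 were called. Unadjusted p was under 0.05 for 3, all higher in withdrawn mice, where 5.00% of all tested genes were higher and 2.22% lower at that p. DESeq2 called 2 of the 36, against 0.864% of its 41907 genes, which include genes below the low-count filter. The lists were chosen with earlier results of these data known, so these counts describe the lists and support no higher rate. Glra4 had counts in 1 mouse.

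Of the 17 organisers, 14 had a log2 fold change below 0 (median -0.25), against 8241 of all 17093 tested genes. Over the alternatives, that count ran from 11 in the replicate block to 15, as without naïve mouse 5. Of the organisers below 0, 0 had an unadjusted p under 0.05, and of those above 0, 2 did, Dag1 and Mdga2. Dag1 encodes dystroglycan, a transmembrane receptor for extracellular matrix found at GABAergic synapses on pyramidal cells. It ranged from 62.0 to 93.7 CPM in naïve mice (median 78.2) and was 177, 163, 134, 120.1 and 112 CPM in withdrawn mice 1 to 5. Every withdrawn mouse lay above every naïve mouse, and the groups did not overlap for 0.948% of all tested genes. Because Dag1 was named for its unadjusted p, this separation is no further support for a difference. The log2 fold change was 0.87 (SE 0.17), with an edgeR adjusted p = 0.0931 and a DESeq2 adjusted p = 0.000345. Without withdrawn mouse 2 the log2 fold change was 0.80 (edgeR adjusted p = 0.0576). The part of cells other than CRF1+ neurons in the Dag1 level was not tested.

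Mdga2, which encodes an inhibitor of the pairing of neuroligins with neurexins, ran from 18.9 to 31.7 CPM in naïve mice (median 27.0) and was 28.4, 73.3, 28.5, 53.4 and 51.8 CPM in withdrawn mice 1 to 5. Withdrawn mice 2, 4 and 5 lay above all naïve mice and mice 1 and 3 did not. Its log2 fold change was 0.87 (SE 0.28, edgeR adjusted p = 0.401) and 0.64 without withdrawn mouse 2, and 1651 of its 18336 exonic bases lie opposite the pseudogene Gm19001. The most abundant organiser was Dynll1, a dynein light chain that binds gephyrin, with a log2 fold change of -0.25 (SE 0.22, edgeR adjusted p = 0.878).

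The chloride transporters set the driving force of glycine and GABA-A receptor currents. Slc12a5, the gene of the extruder KCC2, averaged 362 ± 84.5 CPM (SD, n = 6) for naïve and 389 ± 71.9 CPM (SD, n = 5) for withdrawn mice. Its log2 fold change was 0.10 (SE 0.18, edgeR adjusted p = 0.954). Slc12a2, the gene of the importer NKCC1, ran from 2.57 to 21.6 CPM in naïve mice (median 12.4) and was 87.0, 16.2, 40.3, 68.4 and 24.5 CPM in withdrawn mice 1 to 5. All withdrawn mice but mouse 2 lay above the naïve range. Its log2 fold change was 1.92 (SE 0.52), with an edgeR adjusted p = 0.256 and a DESeq2 adjusted p = 0.0229, and it was 2.12 without withdrawn mouse 2 (edgeR adjusted p = 0.0654). Slc12a2 is also expressed outside neurons, and the fibroblast score was 5.81, 0.26, 5.13, 6.14 and 3.20 in withdrawn mice 1 to 5, lowest in mouse 2 as Slc12a2 was, while that of naïve mice ran from -2.70 to 2.37. The part of other cells in the Slc12a2 level was not tested.

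**Figure D4:**
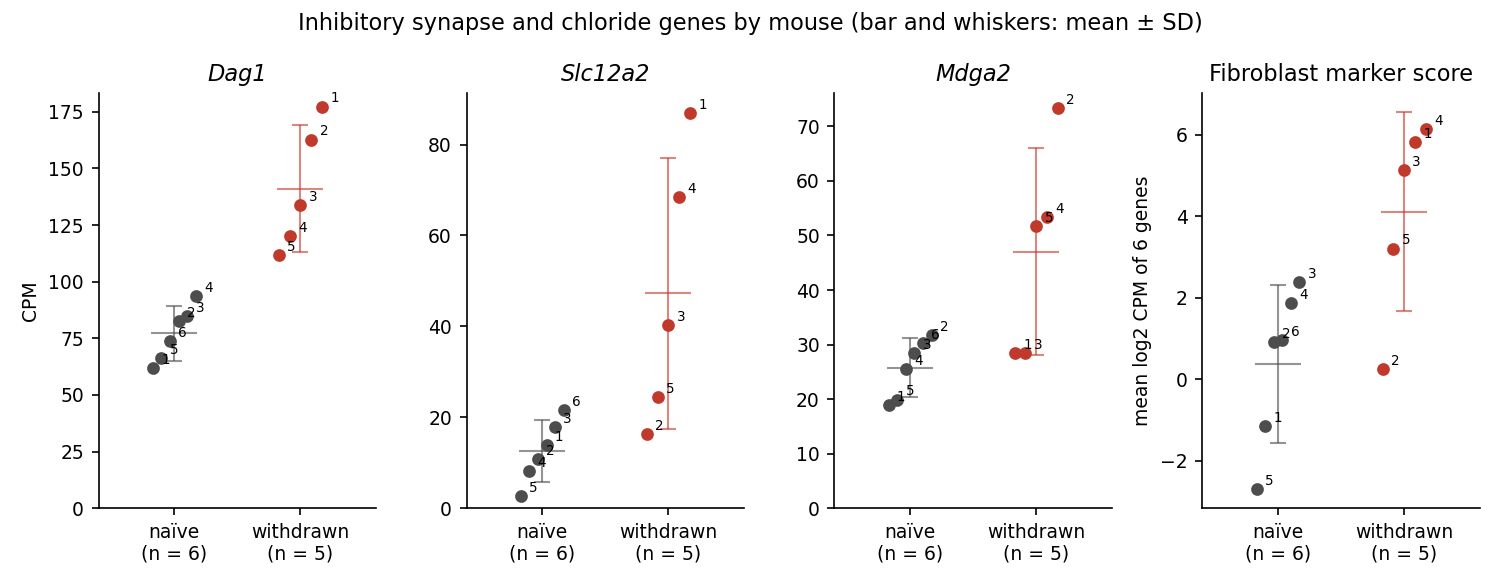
CPM of Dag1, Slc12a2 and Mdga2 and the mean log2 CPM of 6 fibroblast markers in every mouse, with mean and SD, for naïve (n = 6) and withdrawn (n = 5) mice. Dag1 is higher in all 5 withdrawn mice than in any naïve mouse, and the groups do not overlap for 0.948% of tested genes. Withdrawn mouse 2 is the lowest of its group for both Slc12a2 (16.2 CPM) and the fibroblast score (0.26).

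Glycine metabolism and transport had 10 tested genes of 11, with 3 above and 7 below 0 (median -0.31) and 0 with an unadjusted p under 0.05. The most abundant were Dld, a subunit of the glycine cleavage system and other dehydrogenases, and Srr. Srr encodes serine racemase, the source of the NMDA receptor co-agonist D-serine. Dld averaged 168 ± 25.5 CPM in naïve (SD, n = 6) and 177 ± 15.3 CPM in withdrawn mice (SD, n = 5). Its log2 fold change was 0.07 (edgeR adjusted p = 0.959). Srr averaged 74.2 ± 8.38 CPM in naïve (SD, n = 6) and 65.1 ± 6.74 CPM in withdrawn mice (SD, n = 5). Its log2 fold change was -0.19 (edgeR adjusted p = 0.868). The molybdenum cofactor list had 4 of 5 above 0 (median 0.22) and 0 with an unadjusted p under 0.05. Mocs2, which makes molybdopterin ahead of gephyrin, was the most abundant, with a log2 fold change of -0.29 (SE 0.16, edgeR adjusted p = 0.773), and Mocs3, which activates its small subunit, followed with 0.01 (SE 0.42, edgeR adjusted p = 0.997).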

How the data were processed

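Fluorescence-sorted mPFC CRF1+ cells were sequenced as 1 library per mouse (6 naïve, 5 withdrawn). From 160 pg of RNA per mouse the authors prepared libraries with SMARTseq HT (14 and 12 PCR cycles) and obtained single reads of 75 nt, which went through cutadapt, STAR (GRCm38) and HTSeq. The deposited files hold the resulting raw counts per Ensembl gene, not normalized. Rows that name no gene (18.9% to 58.0% of tallied reads) were left out. Symbols, coordinates, exon lengths and transcript sequences came from GENCODE M21 on GRCm38, in which 53360 of 53465 identifiers matched.

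Groups were compared with edgeR 4.0.16 in R 4.3.3 (TMM, filterByExpr with minimum count 10 and minimum total 15, quasi-likelihood test, Benjamini-Hochberg adjustment over 17093 genes). Genes with an adjusted p no higher than 0.05 and a log2 fold change past 0.6 in size were called. Library sizes for CPM were TMM-normalized, except for the floors of 3 counts, which used unscaled totals. For log2 CPM a prior count of 2 was used, and levels between genes were compared per kb of union exon. Ratios used CPM per kb plus 0.1. Group differences in single values were tested by two-sided exact permutation over 462 splits, and correlations with 100000 resamples. Intervals and floors of 3 counts cover counting error or the spread between mice only, because reads were amplified by PCR. Alternatives were DESeq2 1.42.0, limma 3.58.1 voom, other normalizations and filters, a covariate, a replicate block and each mouse left out. DESeq2 was first run with its default alpha of 0.1 for independent filtering and was then set to 0.05, the threshold of the calls, after both counts had been seen. The scripts were tested on simulated data with 200 changed genes. No pair of libraries looked duplicated (chi-square per degree of freedom at least 25.6).

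Members and gene lists were chosen with earlier results of these data known. Named genes were the 7 members, genes of the related lists with an unadjusted p under 0.05 or else the 2 most abundant per list, and the 3 genes most like each tested member. Of these, 2 are not reported here.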

Additional observations from a re-analysis of the deposited data

Results flagged for a closer look

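Of 20 sets of values examined (7 genes and 3 ratios, each by group), 2 had a mouse at a distance from the rest, where chance flags about 1 in 20. Both were naïve mouse 5, the mouse with the fewest genes detected. Its log2 CPM of Glra3 was -0.28, against 3.00 in the next naïve mouse, and its log2 CPM of Gphn was 5.47, against 6.17 in the next. Without this mouse the log2 fold changes were -0.14 for Glra3 and -0.10 for Gphn, and neither passed the test (edgeR adjusted p = 0.963 and 0.924).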

How the results depend on the processing

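No member was called in any alternative, DESeq2, limma voom and the replicate block included, and with each mouse left out the count stayed at 0. The number of all genes called moved far more: 1 in the report, 137 with no filter on low counts, 30 with at least 10 counts in every mouse, 362 with DESeq2 and 372 without its Cook cutoff, 348 with DESeq2's default alpha of 0.1 (an alternative added after seeing the data), 26 with genes detected per mouse as a covariate, and 0 at an adjusted p of 0.01, without the 3 mice with conflicting labels, and in the replicate block. Leaving out 1 mouse gave 0 to 193 calls, with 193 without withdrawn mouse 2, 6 without naïve mouse 2, 1 without naïve mouse 4, and 0 without any of the other 8. Related genes called numbered 0 in the report and with each mouse left out (0 to 0), 1 with at least 10 counts in every mouse (Dag1), and 2 (Dag1 and Slc12a2) with each DESeq2 fit, the default alpha included. The cause of these moves was not tested.

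Small log2 fold changes turned sign. Glra2 was 0.13 in limma voom, 0.17 without naïve mouse 2, 0.04 without withdrawn mouse 1 and 0.01 without withdrawn mouse 2, within a leave-one-out range of -0.49 to 0.17, and was -1.51 without the 3 mice with conflicting labels. Glra3 was -0.14 without naïve mouse 5, and -0.06, -0.03 and -0.01 without withdrawn mice 1, 3 and 5, within -0.14 to 0.29. Gphn was -0.014 with no filter, -0.090 in voom, -0.012 with the covariate, -0.10 without naïve mouse 5, and -0.02, -0.02, 0.00 and -0.05 without withdrawn mice 1, 2, 3 and 5, within -0.10 to 0.067. Slc6a5 was -0.72 in voom. Leaving out 1 mouse gave 0.10 to 2.30 for Slc6a5, 0.23 to 1.06 for Slc6a9 and -0.19 to -0.03 for Glrb, which kept their direction. Without the 3 mice with conflicting labels, Slc6a5 was 2.55 and Slc6a9 1.40, outside those ranges. The difference in the log2 ratio of the alpha genes to Glrb was -0.68 without the 3 mice with conflicting labels and -0.16 to 0.30 with 1 mouse left out, that of Glrb to Gphn was -0.22 to 0.074, and that of Slc6a9 to Glrb was 0.52 to 1.02 and, without the 3 mice, 1.35.

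Same-numbered mice are different animals. The correlations of their deviations from the group means ran from -0.20 to 0.18, and 1 of 5 withdrawn mice correlated best with its own number, so the numbers were not taken to pair the mice. In the replicate block the log2 fold changes were -0.06 for Glra2, 0.39 for Glra3, -0.15 for Glrb, 0.05 for Gphn, 1.83 for Slc6a5 and 0.80 for Slc6a9, and the differences in ratio were 0.20, -0.20 and 0.87. Glra1 and Slc6a5 lay at or under 3 counts in 5 of 11 mice each. Withdrawn mouse 3, with the most counts on genes (22244869), had 0 counts of both. Withdrawn mouse 4, with the fewest (7351567), had 9 of Glra1 and 8 of Slc6a5. The part of depth in these low counts was not tested.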
